A study of Mus musculus with 13 samples.

Results

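The lysosome is the acidic compartment in which cells digest proteins, lipids and sugars, and autophagy is the route that wraps cytoplasm in a membrane and delivers it there. Its enzymes work only at low pH, which a proton pump in the lysosomal membrane maintains, and the transcription factors TFEB and TFE3 bind the promoters of many of these genes. In neurons loss of single lysosomal enzymes causes storage diseases, because undigested material builds up in cells that do not divide. The genes described here are 40 of the 34857 in the deposited tables: 17 lysosomal enzymes and activators, 5 lysosomal membrane proteins, 2 transcription factors, 4 proton pump genes and 12 autophagy genes. Grn, the gene of progranulin, is counted with the enzymes and activators. The 40 genes were chosen by name, with earlier results of these data known, so their shares of calls are a description and no set was tested. Each matched 1 Ensembl identifier, and all 40 passed the filter on low values at both passages.

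The libraries come from Neuro2a, a line grown from a mouse neuroblastoma, a tumour of nerve cell precursors, and hold poly(A) RNA. All vials were frozen in 10% DMSO and thawed at 37 °C. For the experimental vials the nitrogen boiled off over 10 h, a further 24 h let their temperature settle at 4 °C, and they stood at -80 °C for 72 h before the thaw, while control vials remained in regular cryostorage. RNA was taken at passage 1, with 3 control and 4 experimental libraries, and at passage 6, with 3 of each. The labels do not say whether replicates of a group are separate vials or flasks, so p-values reflect only the spread among these libraries, part of which may be technical.

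Values are FPKM, a fragment count divided by transcript length and library size, so levels can be compared between genes of different length. Of 14 neuroblast markers 13 reached 1 FPKM, among them Phox2a (39.7 to 94.2 FPKM), Hand2 (58.8 to 114 FPKM) and Tubb3 (203 to 392 FPKM). Of the 13, Nefl (2.91 and 2.24 FPKM) and Nefm (1.54 and 1.22 FPKM) did so in passage 6 experimental libraries 2 and 3 only, and were at most 0.0207 and 0.0341 FPKM elsewhere. RNA of other tissues was also present. Summed colon epithelium markers lay at 213 to 478 FPKM in passage 1 controls and 8.09 to 198 FPKM in experimental libraries, and at 116 to 264 and 7.9 to 110.5 FPKM at passage 6. Cartilage sums were 7.21 and 8.68 FPKM in passage 1 control 1 and experimental library 4, and 30.8 to 48 FPKM in the remaining 5 of passage 1. They were 34.6 to 58.2 FPKM in passage 6 controls and 17.9 to 20.2 FPKM in passage 6 experimental libraries. Passage 6 experimental libraries 2 and 3 alone held liver RNA (sums of 215 and 172 FPKM) and glial RNA (39.8 and 29.2 FPKM), whose sums stayed at or under 2.05 and 3.57 FPKM elsewhere. Macrophages are rich in lysosomes. Their 12 markers, of which 3 reached 1 FPKM, summed to 1.51 to 4.59 and 0.388 to 3.04 FPKM in passage 1 control and experimental libraries, and to 0.708 to 2.03 and 1.62 to 6.43 FPKM at passage 6. Lyz2 (2.18 FPKM) and C1qb (1.23 FPKM) were highest in passage 6 experimental library 2 and Cd14 (2.67 FPKM) in passage 1 control 1, while Ptprc and Adgre1 were at most 0.0957 and 0.0707 FPKM. The part of this RNA in the results was not tested. In bulk RNA, fewer cells of a type and less RNA per cell cannot be told apart.

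Of the 22 lysosomal enzyme and membrane genes, 13 fell at passage 1 and 0 rose, and 9 rose at passage 6 and 0 fell. A gene is called changed where its adjusted p is under 0.05 (limma on log2(FPKM + 1), Benjamini-Hochberg over all genes tested). At passage 1, 17 members fell and 1 rose, or 42.5% and 2.5% of the 40, against 18.9% and 11.5% of all 12469 genes tested (30.4% in either direction). At passage 6, 11 members rose and 2 fell, or 27.5% and 5% of the 40, against 8.98% and 10.8% of all 12458 genes (19.8% in either direction). The median log2 change of the members was -0.14 at passage 1 and 0.14 at passage 6, beside -0.05 and -0.04 over all genes tested.

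**Figure D1:**
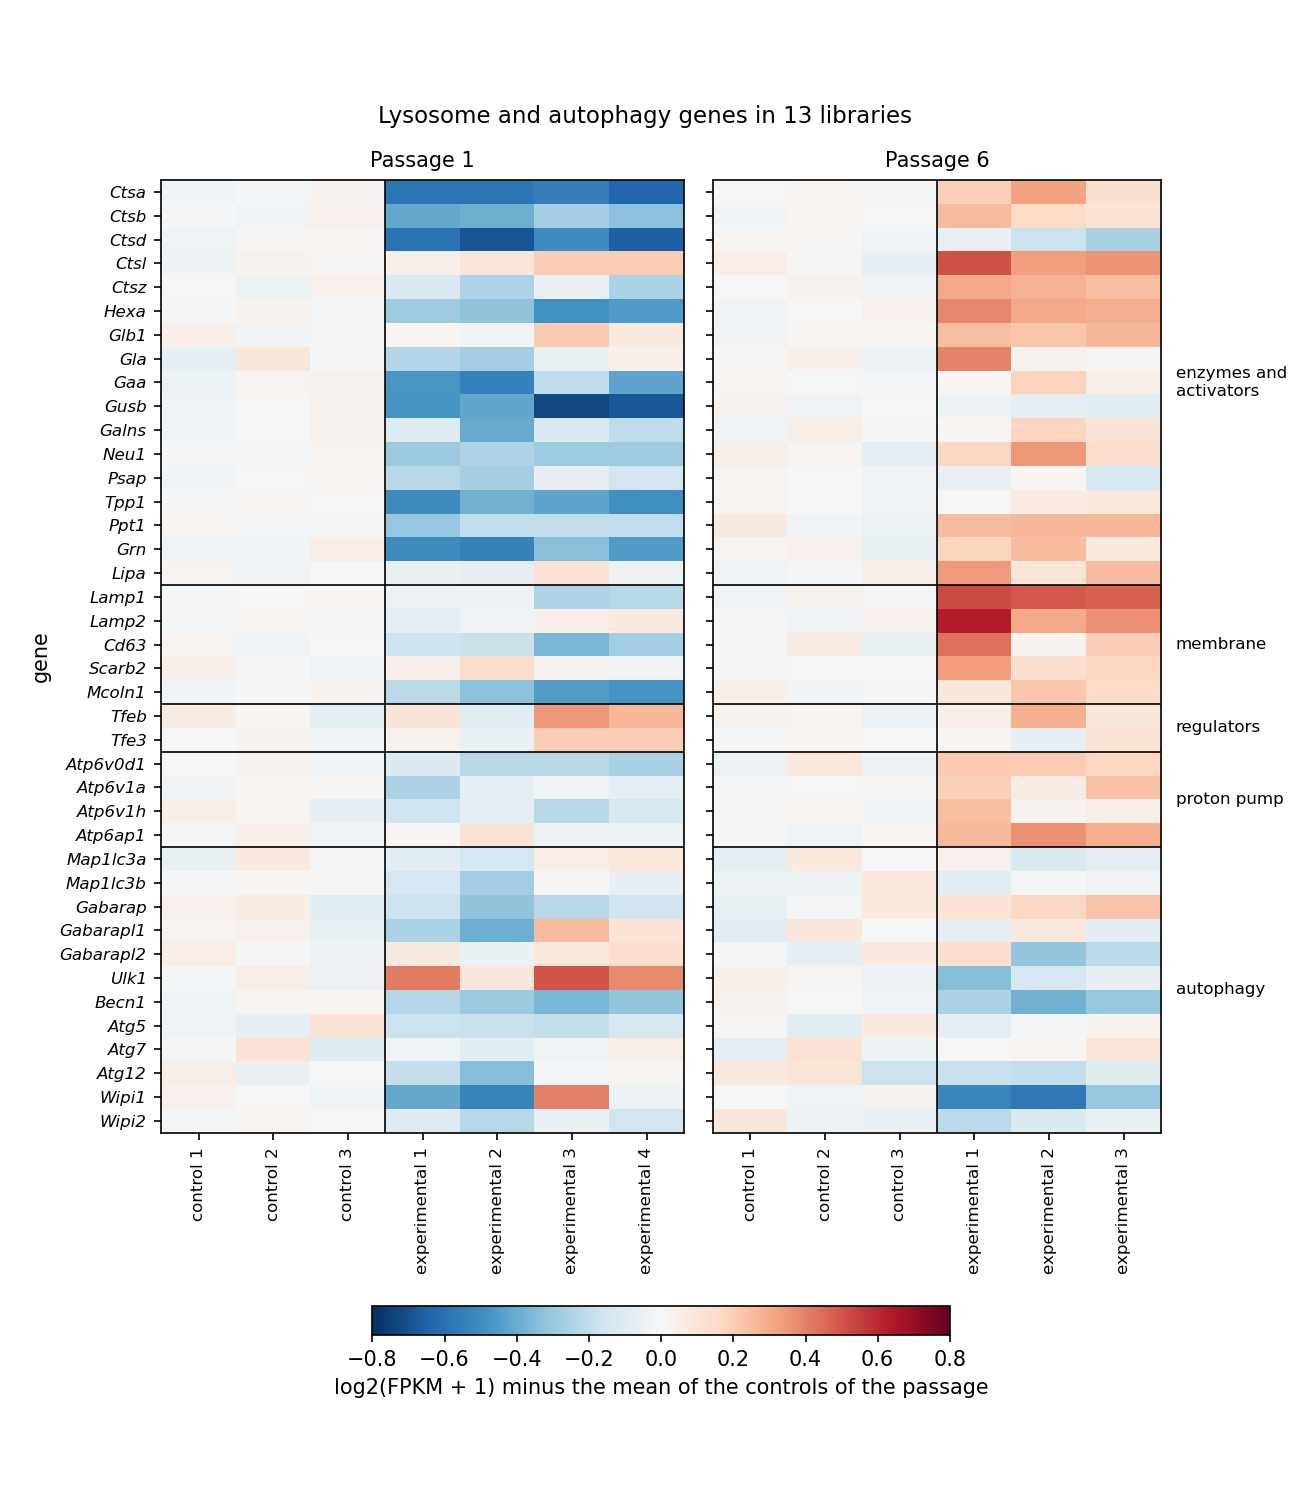
Level of each of the 40 genes (rows) in each library (columns), as log2(FPKM + 1) minus the mean of the controls of the same passage, with blue below and red above the controls. Most enzyme rows are blue in the 4 passage 1 experimental libraries and red in the 3 passage 6 experimental libraries, while Becn1 is blue in both.

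The transcription factors themselves were not called at either passage. Tfeb, which encodes the main activator of lysosomal genes (chromosome 17, 47737030 to 47792419, plus strand, GRCm38), measured 2.81, 2.71 and 2.48 FPKM in passage 1 controls and 2.94, 2.44, 3.67 and 3.41 FPKM in experimental libraries. It was at 2.12, 2.1 and 1.96 FPKM in passage 6 controls and 2.15, 2.73 and 2.26 FPKM in experimental libraries. The groups overlapped at passage 1 and barely separated at passage 6, with log2 changes of 0.16 (95% interval -0.09 to 0.40) and 0.14 (-0.06 to 0.34). Tfe3, its relative on chromosome X, was at 6.29, 6.46 and 6.17 FPKM in passage 1 controls and 6.45, 6.05, 7.39 and 7.36 FPKM in experimental libraries. At passage 6 it was at 4.8, 4.94 and 4.87 against 4.96, 4.61 and 5.32 FPKM, and the groups overlapped at both passages. Its log2 changes were 0.09 (-0.07 to 0.26) and 0.02 (-0.13 to 0.17).

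TFEB and TFE3 bind a palindromic element built on the letters CACGTG. RefSeq promoter windows on GRCm38.p6, from 250 bases before to 50 after a start site, were present for 34 of the 40 genes. The 8 letters GTCACGTG, searched on both strands, were in the windows of 8 of these 34 genes (23.5%), against 2.55% of all 27025 genes with a window. The shorter CACGTG, which also lies inside every GTCACGTG, was in 12 of 34 (35.3%) against 8.09%. By class the longer element was found in 4 of 15 enzyme genes, 2 of 5 membrane genes, 1 of 3 pump genes, 1 of 9 autophagy genes and neither transcription factor gene. It was in 4 of 15 members that fell at passage 1 (26.7%) and in 4 of 19 that did not (21.1%). Of 11 members that rose at passage 6 it was in 4 (36.4%). Of 17 whose change was called more positive at passage 6 than at passage 1 it was in 5 (29.4%), beside 23.5% of all 34. A match is a string of letters and not evidence of binding. Atg7, the 1 autophagy gene with the longer element, has it at a start site well inside the gene. The annotated gene spans 114643097 to 114860614 on the plus strand of chromosome 6. The 8 sites below, 1 per gene, show the element at a start site of genes from 4 of the 5 classes; they run 5′ to 3′ on the gene's strand, and capitals mark the match.
Ctsa (chr2:164833733-164833772, plus strand): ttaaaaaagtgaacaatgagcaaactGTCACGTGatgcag
Ctsd (chr7:142387892-142387951, minus strand): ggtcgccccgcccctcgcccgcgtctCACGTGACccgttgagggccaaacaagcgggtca
Gla (chrX:134601168-134601227, minus strand): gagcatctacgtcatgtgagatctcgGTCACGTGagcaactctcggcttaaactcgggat
Glb1 (chr9:114401002-114401061, plus strand): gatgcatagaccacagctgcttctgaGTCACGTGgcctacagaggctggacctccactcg
Lamp1 (chr8:13159107-13159160, plus strand): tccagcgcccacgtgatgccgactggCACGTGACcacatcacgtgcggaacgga
Mcoln1 (chr8:3500420-3500479, plus strand): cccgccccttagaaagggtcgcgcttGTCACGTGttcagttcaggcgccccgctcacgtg
Atp6v0d1 (chr8:105566051-105566080, minus strand): gccctactgcgGTCACGTGagacgcggtgc
Atg7 (chr6:114670936-114670995, plus strand): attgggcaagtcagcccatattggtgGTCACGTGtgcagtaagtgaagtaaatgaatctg

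The first comparison asks how experimental libraries differed from controls at passage 1. Of the 17 enzyme and activator genes, 11 fell and 0 rose (64.7% and 0%, against 18.9% and 11.5% of all genes). Their median log2 change was -0.28. In 13 of the 17 every experimental library lay below every control, against 26.9% of all genes (42.6% lay apart in either direction). The median enzyme was 0.30, 0.32, 0.20 and 0.29 log2 units lower than the control mean in experimental libraries 1 to 4. Their summed colon markers were 198, 171, 8.09 and 87.3 FPKM, all below the controls, and their part in the lower enzyme levels was not tested.

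Ctsd, Ctsa and Gusb fell most. Ctsd, the aspartic protease cathepsin D (ENSMUSG00000007891, chromosome 7, 142375911 to 142388038, minus strand), is the most abundant member by its mean over all libraries, and was at 577, 595 and 598 FPKM in the controls, against 392, 365, 415 and 374 FPKM in experimental libraries. All 4 experimental libraries lay well below the controls, and the gene was 1.53-fold lower (adjusted p = 2.4e-04). Ctsa, which encodes cathepsin A, a carboxypeptidase that also protects beta-galactosidase and neuraminidase (ENSMUSG00000017760, chromosome 2, 164832873 to 164841032, plus strand), measured 52.7, 53.3 and 54.7 FPKM in controls. It was at 35.4, 35.5, 36.2 and 34.1 FPKM in experimental libraries, a tight group under the controls and 1.5-fold lower (adjusted p = 1.0e-04). Tpp1, a tripeptidyl peptidase gene mutated in a childhood neuronal storage disease (chromosome 7, 105744811 to 105752235), measured 29, 29.7 and 29.4 FPKM in the controls, against 20.4, 22.3, 21.7 and 20.6 FPKM in experimental libraries. It was 1.37-fold lower (adjusted p = 5.8e-04).

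The cysteine proteases were not alike. Ctsb, cathepsin B, was at 73, 72.5 and 75.4 FPKM in the controls, against 55.1, 55.8, 61.2 and 58.5 FPKM in experimental libraries, with no overlap and a 1.27-fold lower level (adjusted p = 0.00193). Ctsz, cathepsin Z, was at 107, 104 and 109.6 FPKM in the controls, against 98, 89.9, 103 and 89.3 FPKM in experimental libraries, and did not pass the test (adjusted p = 0.0625). Ctsl, cathepsin L, was at 13.1, 13.8 and 13.6 FPKM in the controls, against 13.9, 14.5, 15.6 and 15.7 FPKM in experimental libraries. It was the 1 enzyme gene with every experimental library above the controls, and was not called (adjusted p = 0.0938).

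Gusb, beta-glucuronidase (chromosome 5, 129989011 to 130003049, minus strand), measured 29.7, 30.5 and 31 FPKM in the controls, against 21.6, 22.5, 18 and 18.6 FPKM in experimental libraries, 1.49-fold lower (adjusted p = 0.00191). Hexa, the alpha subunit of hexosaminidase A, which degrades the ganglioside GM2 (ENSMUSG00000025232, chromosome 9, 59539540 to 59565109), measured 78.1, 80.2 and 77.8 FPKM in controls. It was at 64.4, 62.7, 56 and 57.3 FPKM in experimental libraries, 1.31-fold lower (adjusted p = 0.00255). For both genes libraries 3 and 4 were the lowest, but all 4 experimental libraries lay below the controls. Gaa, acid alpha-glucosidase, which degrades glycogen, was at 84.7, 89 and 89.3 FPKM in the controls, against 63.2, 59.9, 76 and 65.2 FPKM in experimental libraries (adjusted p = 0.00679). Neu1, the sialidase that works with cathepsin A, was at 13.2, 13.1 and 13.5 FPKM in the controls, against 10.6, 11.1, 10.7 and 10.7 FPKM in experimental libraries (adjusted p = 0.00282). Ppt1, which removes fatty acids from proteins, was at 12.3, 12.1 and 12.1 FPKM in the controls, against 9.69, 10.5, 10.5 and 10.5 FPKM in experimental libraries (adjusted p = 0.0107). Without control 1 Ppt1 had an adjusted p = 0.0525.

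Exons of Ctsa, Ctsb, Ctsz, Ppt1 and Grn overlap a gene on the opposite strand (Pltp, Fdft1, Nelfcd, Cap1 and Fam171a2 in that order, with highest levels of 19.4, 31.4, 28.2, 25.6 and 24.7 FPKM), and its part in their values was not tested. Grn, the gene of progranulin, a secreted and lysosomal protein lost in a form of frontotemporal dementia (ENSMUSG00000034708, chromosome 11, 102430315 to 102437048, plus strand), measured 88.2, 88.6 and 93.3 FPKM in controls. It was at 63.3, 61.6, 71.2 and 65.5 FPKM in experimental libraries, 1.37-fold lower with no overlap (adjusted p = 0.00125). Psap, the precursor of the saposins that activate lipid-degrading enzymes, was at 481, 489.7 and 497 FPKM in the controls, against 419, 407, 468 and 439 FPKM in experimental libraries. Library 3 came closest to the controls, and the call (adjusted p = 0.0394) ended without control 1, 2 or 3 (0.0958, 0.117 and 0.133) and without experimental library 1, 2 or 4 (0.0811, 0.061 and 0.0705). It also ended under all 4 other scalings of the libraries (0.075 to 0.204). The remaining enzyme genes were not called: Glb1 had a log2 change of 0.07, Gla of -0.13, Galns of -0.21 and the acid lipase gene Lipa of -0.01.

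Of the 5 membrane genes, 2 fell and 0 rose at passage 1 (40% and 0%, against 18.9% and 11.5% of all genes). Mcoln1, the lysosomal calcium release channel mucolipin 1 (ENSMUSG00000004567, chromosome 8, 3500457 to 3515232), measured 10.2, 10.3 and 10.6 FPKM in the controls, against 8.78, 8.07, 7.32 and 7.2 FPKM in experimental libraries, 1.29-fold lower (adjusted p = 0.00664). The tetraspanin gene Cd63 was at 122, 118 and 120.1 FPKM in the controls, against 107, 106, 93 and 99.3 FPKM in experimental libraries (adjusted p = 0.013), and its call ended without control 1 or 3 (0.0583 and 0.0531). Lamp1, the most abundant lysosomal membrane glycoprotein, was at 374, 376 and 380.2 FPKM in the controls, against 365, 367, 318 and 323 FPKM in experimental libraries. All 4 were below the controls, libraries 1 and 2 only slightly, and the gene was not called (adjusted p = 0.13). Lamp2, needed for fusion of autophagosomes with lysosomes, was at 13.6, 13.8 and 13.6 FPKM in the controls, against 12.9, 13.3, 14.1 and 14.5 FPKM in experimental libraries. Scarb2, which carries glucocerebrosidase to lysosomes, was at 48.6, 47 and 46.1 FPKM in the controls, against 48.6, 52.1, 48.2 and 46.5 FPKM in experimental libraries. Both overlapped between the groups, with log2 changes of 0.00 (95% interval -0.12 to 0.12) and 0.05 (-0.07 to 0.16).

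Of the 4 pump genes, 1 fell at passage 1 (25%, against 18.9% of all genes), namely Atp6v0d1, a subunit of the membrane part of the pump. It was at 103, 105 and 100.3 FPKM in the controls, against 95.2, 88.1, 88.1 and 85.7 FPKM in experimental libraries (adjusted p = 0.0149), and its call ended without control 1 or 2 (0.0643 and 0.0726). Atp6ap1, an accessory subunit, was at 57.2, 59.6 and 56.9 FPKM in the controls, against 58.6, 62.3, 56.1 and 56.1 FPKM in experimental libraries, with a log2 change of 0.01 (95% interval -0.11 to 0.12). The catalytic subunit gene Atp6v1a and Atp6v1h had log2 changes of -0.10 and -0.14 and were not called.

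Of the 12 autophagy genes, 3 fell and 1 rose at passage 1 (25% and 8.33%, against 18.9% and 11.5% of all genes). Fitted changes were negative in 10 and positive in 2, with a median of -0.13, and 59.9% of all genes had a negative value. Becn1, beclin 1 of the lipid kinase complex that starts autophagosomes (ENSMUSG00000035086, chromosome 11, 101285952 to 101302286, minus strand), measured 21.2, 22 and 21.9 FPKM in the controls, against 18.4, 17.5, 16.6 and 17.2 FPKM in experimental libraries, 1.23-fold lower (adjusted p = 0.00334). Gabarap, a ubiquitin-like protein attached to autophagosome membranes, was at 67.3, 68.5 and 61.6 FPKM in the controls, against 58.3, 52.3, 56.2 and 58.7 FPKM in experimental libraries. Its groups were separated, and its call (adjusted p = 0.024) ended without control 1 or 2 (0.0959 and 0.103) and with median-of-ratios scaling (0.057). Atg5, part of the enzyme that attaches such proteins, was at 15.9, 15.6 and 17.6 FPKM in the controls, against 14.4, 14.3, 14.2 and 14.9 FPKM in experimental libraries. Its adjusted p = 0.0459 rose above the threshold when any 1 library was left out (0.0667 to 0.179) and under all 4 other scalings (0.0799 to 0.128).

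Ulk1, the kinase that triggers autophagy (chromosome 5, 110784488 to 110810097, minus strand), was the 1 member that rose at passage 1. It was at 5.18, 5.43 and 5.02 FPKM in the controls, against 7.27, 5.61, 7.78 and 7.07 FPKM in experimental libraries, where library 2 stood close to the controls. It was 1.27-fold higher (adjusted p = 0.027), and the call ended without control 1, 2 or 3 (0.083, 0.0658 and 0.0949) or experimental library 1 or 4 (0.0579 and 0.0657). The relatives of Gabarap were not called. Gabarapl1 was at 40.3 FPKM in control 2 and 37.8 FPKM in control 3, with control 1 between them, against 32.9, 29.8, 47 and 42.3 FPKM in experimental libraries, so that libraries 1 and 2 were below and libraries 3 and 4 above all controls. Gabarapl2, Map1lc3a and Map1lc3b had log2 changes of 0.06, -0.03 and -0.12. Exons of Map1lc3b overlap Zcchc14 on the opposite strand, whose highest level was 16.5 FPKM. Wipi1, a lipid-binding protein of early autophagosomes, was at 28.6, 27.8 and 27.2 FPKM in the controls, against 20.7, 18.9, 37.1 and 27.1 FPKM in experimental libraries, on both sides of the controls (adjusted p = 0.607). The other 3 autophagy genes, Atg7, Atg12 and Wipi2, had log2 changes of -0.03, -0.13 and -0.13.

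Calls at passage 1 dropped when a control was left out. Without control 1, 2 or 3 the calls over all genes fell from 3792 to 2083, 2053 and 2087. The members that fell then numbered 11, 13 and 14 in place of 17. With the comparison restricted to libraries holding more cartilage RNA (controls 2 and 3, experimental libraries 1 to 3), they numbered 7, namely Ctsa, Ctsb, Ctsd, Hexa, Gusb, Tpp1 and Grn, and Ulk1 was not called.

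**Figure D2:**
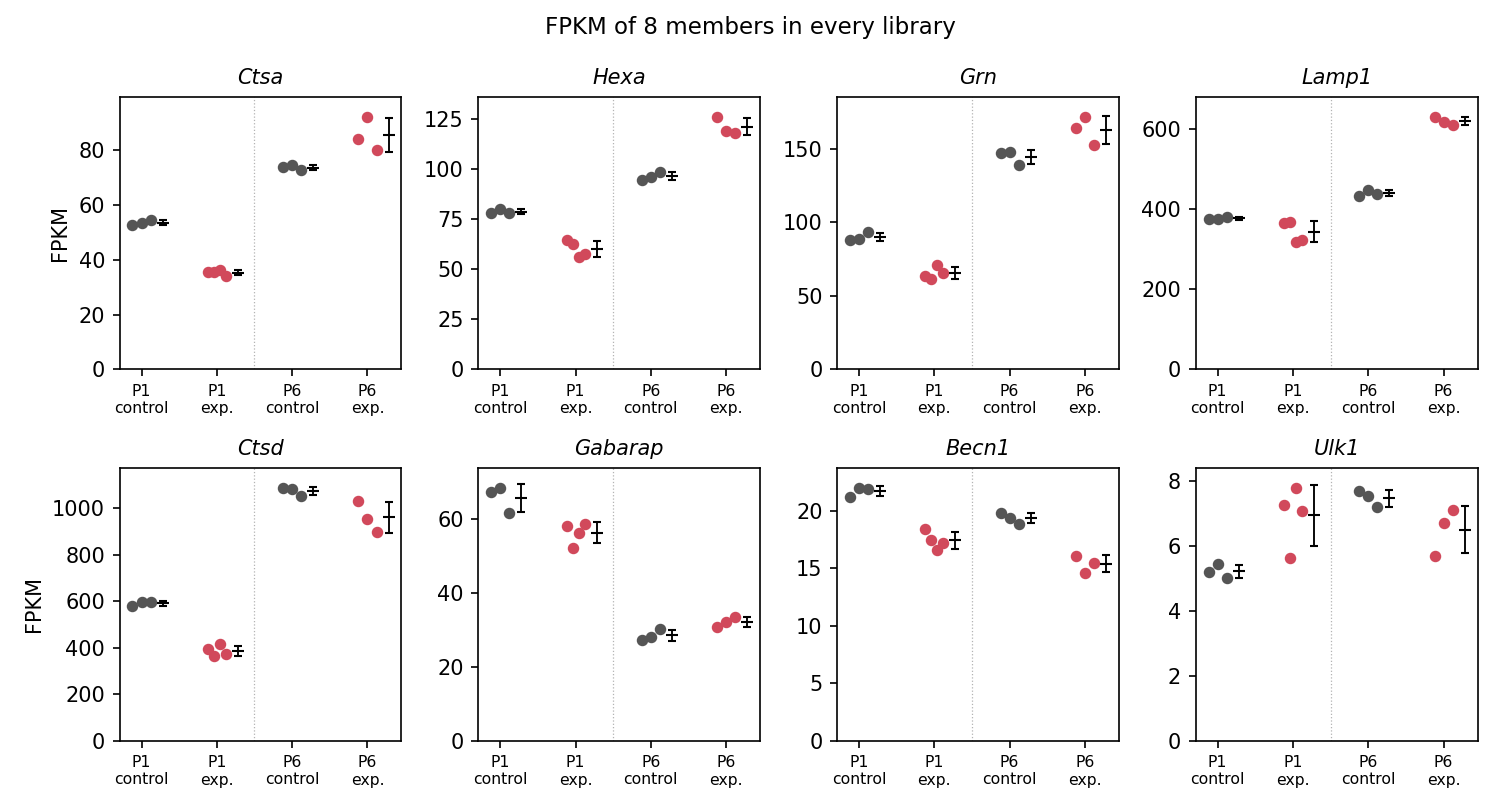
FPKM of 8 genes in each library (dots; grey, control; red, experimental), with mean ± SD at the right of each group of 3 or 4, for passage 1 (P1) and passage 6 (P6). For Ctsa, Hexa, Grn, Lamp1 and Gabarap the experimental dots lie below the controls at passage 1 and above them at passage 6, for Becn1 below them at both passages; the tables of the passages were deposited separately, so levels are compared within a passage.

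The second comparison asks how experimental libraries differed from controls at passage 6. Of the 17 enzyme and activator genes 6 rose and 0 fell, of the 5 membrane genes 3 rose, of the 4 pump genes 2 rose, and of the 12 autophagy genes 2 fell and 0 rose. Of all genes 8.98% rose and 10.8% fell. The summed level of the 17 enzyme genes, most of it Ctsd and Psap, was 3129, 3113 and 3041 FPKM in the controls, against 3153, 3144 and 2937 FPKM in experimental libraries, which overlapped. In 20 of the 40 members every experimental library lay above every control, against 17.4% of all genes, and in 6 every experimental library lay below, against 24.3% (41.7% lay apart in either direction). The liver, glial and macrophage sums (6.43 and 5.27 FPKM for the last, against at most 2.03 FPKM in the controls of that passage) were raised in experimental libraries 2 and 3 only. In library 1 the colon and cartilage sums (110.5 and 18.6 FPKM) lay below those of the controls, and the part of such RNA was not tested. With library 1 as the only experimental library, whose spread is then assumed to be like that of the controls, 16 members were called higher, among them 10 of the 11.

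Lamp1 rose most. The gene (ENSMUSG00000031447, chromosome 8, 13159161 to 13175338, plus strand) measured 433, 447 and 437 FPKM in the controls, against 630.0, 617 and 609 FPKM in experimental libraries. All 3 experimental libraries lay far above the controls, and the level was 1.41-fold higher (adjusted p = 0.00169). Lamp2 (chromosome X, 38401357 to 38456454, minus strand) measured 17.8, 17.7 and 18.4 FPKM in the controls, against 28.3, 22.4 and 23.4 FPKM in experimental libraries, 1.35-fold higher (adjusted p = 0.0164). Library 1 was the highest, and the call ended without control 1, 2 or 3 (0.0648, 0.069 and 0.0569). Scarb2 was at 75, 75.5 and 75.7 FPKM in the controls, against 95.2, 82.9 and 84.6 FPKM in experimental libraries (adjusted p = 0.0492), a call that ended without control 1, 2 or 3 (0.151, 0.149 and 0.144) or experimental library 3 (0.0758). Cd63 was at 123, 129 and 119 FPKM in the controls, against 168, 126 and 142 FPKM in experimental libraries, which overlapped (adjusted p = 0.15). Mcoln1 was at 18, 17.2 and 17.3 FPKM in the controls, against 18.7, 20.6 and 19.6 FPKM in experimental libraries, without overlap and not called (adjusted p = 0.0787).

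Among enzymes, Ctsl and Hexa had the largest changes. Ctsl (chromosome 13, 64359337 to 64370890, minus strand) measured 22.6, 21.9 and 20.7 FPKM in the controls, against 31.3, 27.6 and 28.1 FPKM in experimental libraries, 1.32-fold higher (adjusted p = 0.00805). Hexa was at 94.4, 96.1 and 98.5 FPKM in the controls, against 126, 119 and 118 FPKM in experimental libraries, 1.25-fold higher (adjusted p = 0.00565). Both were called with each library left out in turn, as was Lamp1. Ctsz was at 160.4, 163 and 156 FPKM in the controls, against 197, 194 and 189 FPKM in experimental libraries (adjusted p = 0.00868). Its groups did not overlap, though the adjusted p was 0.0509 without control 1 and 0.0562 without control 3.

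Glb1, the beta-galactosidase gene whose product is also used as a marker of senescent cells, was at 40.4, 41.7 and 41.7 FPKM in the controls, against 49, 48.3 and 49.7 FPKM in experimental libraries, 1.18-fold higher (adjusted p = 0.0106). Without control 1, 2 or 3 its adjusted p was 0.0625, 0.0576 and 0.055. Ppt1 was at 19, 17.7 and 17.4 FPKM in the controls, against 21.7, 21.9 and 21.9 FPKM in experimental libraries (adjusted p = 0.0139; 0.0728 and 0.0736 without control 2 or 3). Ctsa was at 73.8, 74.5 and 72.7 FPKM in the controls, against 84.2, 92.3 and 80.2 FPKM in experimental libraries, 1.16-fold higher (adjusted p = 0.0466). That call ended without control 1, 2 or 3 (0.139, 0.135 and 0.154) or experimental library 2 (0.0693). It also ended with quantile normalization (0.128) and with equal FPKM totals without mitochondrially encoded genes (0.056).

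Several genes of the enzyme and activator class that fell at passage 1 lay above the controls here. Ctsb was at 102, 105 and 104 FPKM in the controls, against 124, 115 and 112 FPKM in experimental libraries (adjusted p = 0.0558). Grn was at 147, 148 and 139 against 164, 172 and 153 FPKM (adjusted p = 0.0809), and Neu1 at 19.3, 18.9 and 17.7 against 21, 24 and 20.4 FPKM (adjusted p = 0.0767). In all 3 genes the experimental libraries lay above the controls without passing the test. Gaa (185, 182 and 181 against 185, 207 and 189 FPKM) and Tpp1 (47.7, 47.2 and 46.1 against 47, 49.2 and 49.6 FPKM) overlapped. The 2 most abundant genes did not follow: Ctsd was at 1087, 1083 and 1053 FPKM in the controls, against 1032, 952 and 898 FPKM in experimental libraries, below the controls (adjusted p = 0.113), and Psap at 1040.0, 1025 and 1004 against 981, 1031 and 939.6 FPKM, with overlap. Gusb was at 52.6, 50.4 and 51.4 against 50.1, 48.9 and 48.2 FPKM, just below the controls (adjusted p = 0.305). Lipa, Gla and Galns had log2 changes of 0.23, 0.14 and 0.10 and were not called.

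Both called pump genes rose. Atp6ap1 (chromosome X, 74297097 to 74304721) measured 96.6, 94 and 97.1 FPKM in the controls, against 115, 124 and 117 FPKM in experimental libraries, 1.24-fold higher (adjusted p = 0.0074; 0.0507 without control 2). Atp6v0d1 was at 55.7, 61.1 and 56 FPKM in the controls, against 66.6, 66.5 and 65 FPKM in experimental libraries (adjusted p = 0.0379). The latter call ended without control 1, 2 or 3 (0.15, 0.06 and 0.151) or experimental library 2 or 3 (0.0779 and 0.07). It also ended with quantile normalization (0.0523). Atp6v1a and Atp6v1h were above the controls in every experimental library and not called, with log2 changes of 0.16 and 0.11.

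Of the 12 autophagy genes 2 fell and 0 rose at passage 6 (16.7% and 0%), against 10.8% and 8.98% of all genes. Wipi1 (chromosome 11, 109573331 to 109611967, minus strand) measured 19.9, 19.6 and 20.4 FPKM in the controls, against 13.6, 13.1 and 16 FPKM in experimental libraries. It was 1.38-fold lower (adjusted p = 0.00848), a call that ended in 1 fit over both passages (0.0784). Becn1 was at 19.8, 19.4 and 18.9 FPKM in the controls, against 16.1, 14.6 and 15.5 FPKM in experimental libraries, 1.24-fold lower (adjusted p = 0.00991; 0.0547 and 0.0539 without control 1 or 2). Gabarap was at 27.3, 28.2 and 30.2 FPKM in the controls, against 30.9, 32.2 and 33.6 FPKM in experimental libraries, just above them and not called (adjusted p = 0.0744). Gabarapl1 was at 18.7, 21.4 and 20.0 against 19.1, 21.3 and 18.7 FPKM and Atg5 at 7.84, 7.29 and 8.24 against 7.34, 7.69 and 7.95 FPKM, both with overlap. Ulk1 was at 7.69, 7.52 and 7.18 FPKM in the controls, against 5.69, 6.71 and 7.1 FPKM in experimental libraries, the opposite order from passage 1, and was not called (adjusted p = 0.156). Map1lc3a, Map1lc3b and Gabarapl2 had log2 changes of -0.05, -0.04 and -0.13, and Atg7, Atg12 and Wipi2 of 0.04, -0.16 and -0.13.

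Calls at passage 6 also dropped when a control was left out. Without control 1, 2 or 3 the calls over all genes fell from 2462 to 767, 670 and 749. The members called higher then numbered 5, 4 and 4 in place of 11, and without control 1 or 2 only Wipi1 remained lower. Without experimental library 1, 4 members were called lower in place of 2.

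The third comparison tests whether the change differed between the passages, as the change at passage 6 minus the change at passage 1 over all 13 libraries. It was positive for 18 members and negative for 1, or 45% and 2.5% of the 40, against 8.46% and 6.27% of 13019 genes. The positive ones were 11 of the 17 enzyme genes, 4 of the 5 membrane genes, 2 of the 4 pump genes and 1 of the 12 autophagy genes. All 22 enzyme and membrane genes had a positive value, with a median of 0.48 beside 0.02 over all genes tested. Ctsa had the largest difference, 0.80 ± 0.07 (log2, ± SE; adjusted p = 1.9e-04), followed by Hexa at 0.71 ± 0.08 (3.1e-04) and Grn and Lamp1 at 0.63 ± 0.08 each (9.8e-04 and 8.9e-04). Ctsd, which was below the controls at both passages, had a difference of 0.45 ± 0.08 (adjusted p = 0.00547). Of the 18 positive calls 17 held with each library left out in turn. Without passage 6 experimental libraries 2 and 3, those of Gaa, Gabarap and Atp6ap1 ended (adjusted p = 0.0538, 0.0621 and 0.0645). The exception on leaving out 1 library was Cd63, with an adjusted p = 0.0501 without passage 1 control 1 and 0.0541 without passage 6 control 3.

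The negative member was Ulk1, at -0.52 ± 0.13 (adjusted p = 0.021; 0.0535 without passage 1 control 3 and 0.0537 without passage 6 control 1). For Becn1, lower at both passages, the difference was -0.01 ± 0.07 (adjusted p = 0.908), and it was the 1 member called lower at both, against 3.99% of 11908 genes. No member was called higher at both, against 3.12%. Tfeb and Tfe3 had differences of -0.02 ± 0.14 and -0.07 ± 0.10.

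For 4 members, Ctsa, Hexa, Ppt1 and Atp6v0d1, the change was called lower at passage 1 and higher at passage 6. This is 10% of the members, against 0.756% of the 11908 genes tested at both passages. Without passage 6 control 1 the calls at passage 6 left Hexa and Ppt1 of the 4, and without control 2 or 3 Hexa alone; without passage 1 control 1 those at passage 1 left Ctsa and Hexa. In 11 members every experimental library lay below every control at passage 1 and above every control at passage 6, against 2.58% of all genes. Besides these 4 they were Ctsb, Ctsz, Neu1, Grn, Lamp1, Mcoln1 and Gabarap.

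**Figure D3:**
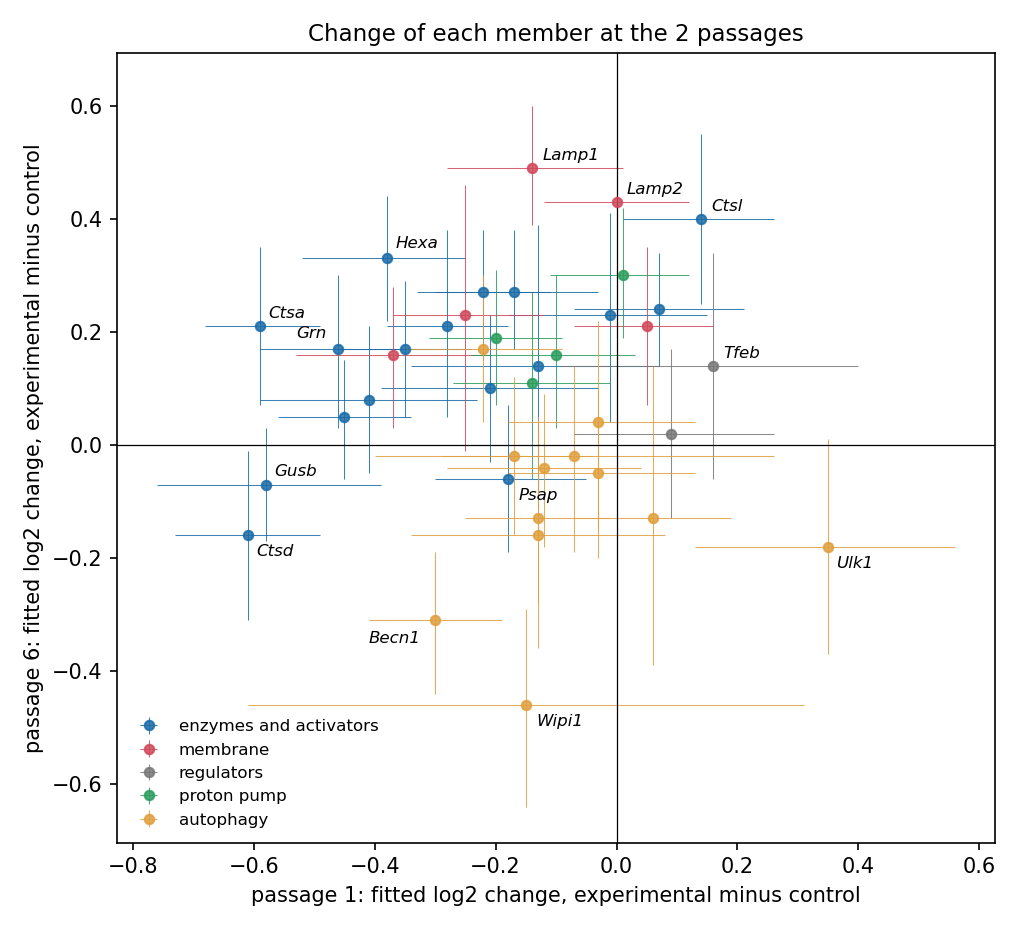
Fitted log2 change of each of the 40 genes, experimental minus control, at passage 1 (horizontal) and passage 6 (vertical), with 95% intervals from limma as bars and colours for the classes. Of the 40 genes 20 lie in the upper left, lower at passage 1 and higher at passage 6; Becn1 and Wipi1 lie lowest and Ulk1 farthest to the right.

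The wider pathway was read from 121 other genes in 6 classes, of which 114 were tested at passage 1 and 115 at passage 6. At passage 1, 37 fell and 6 rose (32.5% and 5.26%, against 18.9% and 11.5% of all genes). At passage 6, 26 rose and 7 fell (22.6% and 6.09%, against 8.98% and 10.8%). Their median log2 change was -0.11 at passage 1 and 0.04 at passage 6. Of 116 tested for the difference between passages, 33 had a positive and 4 a negative call (28.4% and 3.45%, against 8.46% and 6.27% of all genes).

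Other genes of lysosomal enzymes and related proteins, also listed with earlier results known, changed mostly in the same directions as the members. Of 27 tested at passage 1, 10 fell and 0 rose (37% and 0%, against 18.9% and 11.5% of all genes). Among the 10 were the cathepsin gene Ctso (1.46-fold) and the dipeptidyl peptidase gene Dpp7 (16.9 ± 0.647 to 11.5 ± 0.642 FPKM; mean ± SD, n = 3 and 4). Of 28 at passage 6, 10 rose, including the iduronate sulfatase gene Ids (1.81-fold; 1.87 FPKM in experimental library 1 and 3.49 and 3.04 FPKM in libraries 2 and 3, which held liver and glial RNA), the cholesterol carrier gene Npc2 (24.8 ± 0.482 to 34.9 ± 1.1 FPKM; mean ± SD, n = 3 and 3) and the sphingomyelinase gene Smpd1 (1.38-fold). There 2 fell, the cathepsin gene Ctss and Naglu, so that 35.7% rose and 7.14% fell, against 8.98% and 10.8% of all genes. Ctss was at 1.09, 1.24 and 0.676 FPKM in experimental libraries 1 to 3, whose colon sums were 110.5, 7.9 and 8.53 FPKM. At passage 1 it ran from 0 FPKM in experimental library 3 to 4.75 FPKM in control 1, with the lowest and highest colon sums (8.09 and 478 FPKM). The part of colon RNA in its values was not tested. Of 14 other membrane genes tested at passage 1, 6 fell and 1 rose (42.9% and 7.14%, against 18.9% and 11.5% of all genes). Of 15 at passage 6, 4 rose and 0 fell (26.7% and 0%, against 8.98% and 10.8%). Tmem192, a lysosomal membrane protein gene, fell 1.3-fold at passage 1 and rose 1.21-fold at passage 6. Cln3 and the potassium channel gene Tmem175 fell at passage 1, when Litaf rose 1.32-fold, and Ostm1 and Laptm4a rose at passage 6.

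Of 9 genes that sort enzymes to the lysosome, 4 fell and 1 rose at passage 1 (44.4% and 11.1%, against 18.9% and 11.5% of all genes). Nagpa, which uncovers the mannose 6-phosphate tag of enzymes, fell from 9.63 ± 0.514 to 6.11 ± 0.985 FPKM (mean ± SD, n = 3 and 4), the mannose 6-phosphate receptor gene Igf2r fell 1.29-fold and Gnptg 1.21-fold. At passage 6, 3 rose and 1, Gga3, fell (33.3% and 11.1%, against 8.98% and 10.8%). Gnptab, which makes the tag, rose 1.28-fold and the receptor gene M6pr 1.26-fold. The sorting receptor gene Sort1 rose at both passages, 1.2- and 1.17-fold.

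Of 14 other pump genes 5 fell at passage 1 (35.7%, against 18.9% of all genes) and 6 rose at passage 6 (42.9%, against 8.98%), with none in the opposite direction. At passage 1 Atp6v0a1, the neuronal form of the large membrane subunit, fell from 40.6 ± 1.21 to 29.5 ± 1.76 FPKM (mean ± SD, n = 3 and 4), Atp6v0b 1.35-fold and Atp6v0e 1.22-fold. At passage 6 Atp6v0c and Atp6ap2 rose 1.28-fold each and Atp6v1e1 1.26-fold. Atp6v0c was at 54.1, 54.2 and 55.2 FPKM in the controls and at 60.3 FPKM in experimental library 1. In libraries 2 and 3, which held liver and glial RNA, it was at 75.8 and 75.4 FPKM, and the part of that RNA was not tested.

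Of 35 other autophagy genes, 8 fell and 4 rose at passage 1 (22.9% and 11.4%, against 18.9% and 11.5% of all genes). At passage 6, 3 fell and 1, Pik3r4, rose (8.57% and 2.86%, against 10.8% and 8.98%), so these shares were near or below those of all genes. Optn, a receptor that links cargo to autophagosomes, rose from 10.4 ± 0.38 to 15.6 ± 0.956 FPKM (mean ± SD, n = 3 and 4) at passage 1, the fusion protein gene Vamp8 1.51-fold and Atg14 1.2-fold. Vps41, Nbr1 and Atg3 fell 1.28-, 1.27- and 1.26-fold there. The cargo receptor gene Nbr1 fell again at passage 6, with Atg10 and Wdr45. Of 15 genes of nutrient signalling on the lysosome, 4 fell at passage 1 (26.7%, against 18.9% of all genes), including Lamtor3, Rragb and Lamtor1 (1.3-, 1.29- and 1.21-fold). Of 14 at passage 6, Rragb and Lamtor1 rose (14.3%, against 8.98%) and Lamtor3 fell (7.14%, against 10.8%).

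**Figure D4:**
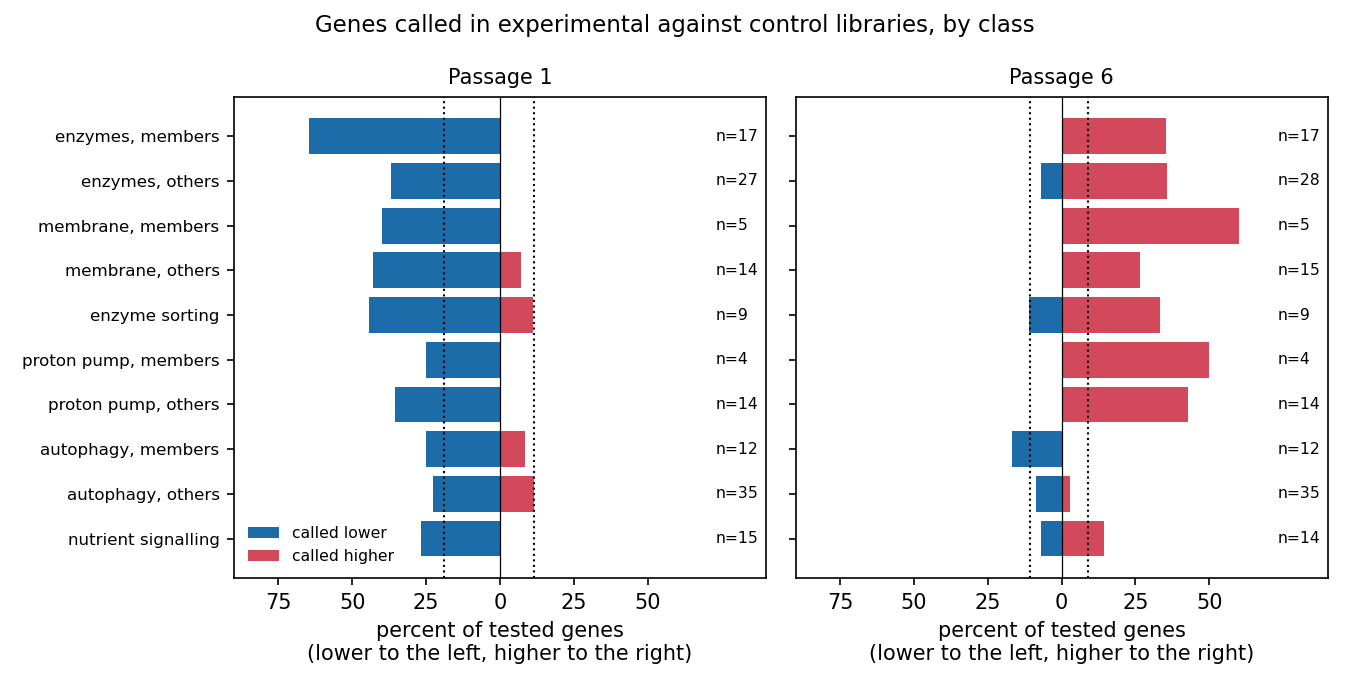
Percent of the tested genes of each class called lower (blue, to the left) or higher (red, to the right) at each passage, with the number tested (n) and, as dotted lines, the percent of all genes called in that direction (18.9% lower and 11.5% higher at passage 1, 10.8% and 8.98% at passage 6). Enzyme, membrane and sorting classes and the other pump genes reach past the dotted lines to the left at passage 1 and to the right at passage 6. Pump members and autophagy members both reach 25% to the left at passage 1. At passage 6 pump members reach 50% to the right and autophagy members 16.7% to the left. The other autophagy genes stay near or inside the dotted lines.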

How the data were processed

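Poly(A) RNA of 13 Neuro2a libraries was analysed from 2 tables of FPKM, 1 per passage, deposited by the authors. The tools named are StringTie, HISAT2, edgeR, DESeq2 and cutadapt, and the build is mm10, per the submitters' processing notes, which give no versions here; how libraries were scaled is not given in the sources used here. The kit is stranded per the labels' protocols, but whether strand was used in quantification is not given, so reads of overlapping antisense genes may be included. FPKM hold no read counts and absolute depth is unknown; the steps between low values put relative depth between 0.87 and 1.226 of the median library.

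Of 34857 identifiers 34731 matched a GENCODE M21 symbol (GRCm38, also called mm10); 1 gene with an empty cell was left out. All 13 value columns were used. Genes reaching 1 FPKM in 3 or more libraries of a passage were fitted by limma (version 3.58.1, R 4.3.3) after adding 1 FPKM and taking log2 (trend, two-sided, Benjamini-Hochberg over all genes, threshold 0.05), per passage, and over 13 libraries for the difference between passages. Fold changes include the added 1 FPKM and understate the change of low genes. The fits were tested on simulated data. Members and lists were chosen with earlier results of these data known, so no list was tested as a set. Per-library values are given for members called in any comparison, for Tfeb, Tfe3 and Mcoln1, and for the 2 most abundant of each class, and other pathway genes by the largest called changes, up to 3 per class, direction and passage; 1 gene that this rule names is not reported here. Python 3.11.15 and pandas 2.3.3 were used for tables. Alternatives were other pseudocounts, filters, scalings and limma settings, the replicate number as a block, and leaving out libraries.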

Additional observations from a re-analysis of the deposited data

Results flagged for a closer look

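The change at passage 6 differed from that at passage 1, tested as the difference itself in limma over 13 libraries, for 19 of the 40 genes. In log2 units the difference was 0.80 for Ctsa, 0.71 for Hexa, 0.63 for Lamp1 and for Grn, 0.52 for Mcoln1 and for Ctsb, 0.51 for Gusb and 0.50 for Tpp1. It was 0.49 for Neu1 and for Gaa, 0.48 for Ppt1, 0.47 for Cd63, 0.45 for Ctsd, 0.44 for Ctsz and 0.43 for Lamp2. It was 0.40 for Atp6v0d1, 0.39 for Gabarap, 0.30 for Atp6ap1 and -0.52 for Ulk1. The adjusted p lay between 1.9e-04 (Ctsa) and 0.021 (Ulk1).

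In 3 of the 40 genes 1 of the 4 passage 1 experimental libraries stood apart from the other 3. Neu1 was at 11.1 FPKM in library 2 against 10.6 to 10.7 FPKM, Ppt1 at 9.69 FPKM in library 1 against 10.5 FPKM in each of the others, and Lipa at 1.94 FPKM in library 3 against 1.59 to 1.63 FPKM. Chance flags about 1 in 20 such groups. The other groups, with 3 libraries each, were too small for this screen.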

How the results depend on the processing

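No member reversed its direction against a call in any alternative run; with a minimum of 5 FPKM the members below it were not tested. Without the filter on low values 0 members rose at passage 1, 7 rose at passage 6, 16 other pathway genes and 1286 genes in all were called at passage 6, and 0 differences were negative. Median-of-ratios scaling and array weights each gave 2 members higher at passage 1, and array weights 2 negative differences. With 1 fit over both passages 1 member remained lower at passage 6, without Wipi1. Between the passage 1 libraries with cartilage RNA, 7 members were lower and 0 higher, 9 other pathway genes and 976 genes in all were called, and 0 differences were negative. In place of 11 higher members at passage 6, 16 were called without experimental libraries 2 and 3. Leaving out 1 library at a time gave 11 to 17 members lower and 0 to 1 higher at passage 1, with 25 to 45 other pathway genes and 2053 to 4069 genes in all. At passage 6 it gave 4 to 15 members higher and 1 to 4 lower, with 8 to 43 other pathway genes and 670 (without control 2) to 4257 (without experimental library 1) genes in all. It gave 17 to 22 positive and 0 to 2 negative differences. Replicate numbers are shared between groups, but same-numbered libraries did not deviate together (correlations of 0.166, -0.192 and 0.239 at passage 1 and -0.066, -0.06 and 0.033 at passage 6), so the numbers were not taken as pairs. With the replicate block 11 members were lower and 0 higher at passage 1, with 21 other pathway genes and 1813 genes in all, 14 other pathway genes and 1438 genes in all were called at passage 6, and 0 differences were negative. The block left 8 of the 11 higher members at passage 6 (without Ctsa, Scarb2 and Atp6v0d1) and 15 of the 18 positive differences (without Atp6ap1, Cd63 and Lamp2). The cause of these shifts was not tested. Absolute depth is unknown, so no counting error can be given for low genes such as Lipa.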

Other observations

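Levels in the control libraries can be set side by side across the passages only as a description, since the tables were deposited separately. All 17 enzyme and activator genes stood higher in every passage 6 control than in every passage 1 control, with ratios of the means from 1.22 to 2.09, as did 27.6% of 11908 genes. Ctsd was at 590.0 ± 11.2 and 1074 ± 18.4 FPKM and Psap at 489 ± 8.13 and 1023 ± 18 FPKM (mean ± SD, n = 3 and 3). Of the 12 autophagy genes 10 (83.3%) stood lower in every passage 6 control, as did 56.3% of the 11908 genes. The median ratio over the 12 was 0.606, and Gabarap was at 65.8 ± 3.71 and 28.5 ± 1.48 FPKM (mean ± SD, n = 3 and 3). The median ratio over all genes was 0.822. Of the pump genes Atp6v0d1, Atp6v1a and Atp6v1h stood lower at passage 6 and Atp6ap1 higher (75% and 25%, beside 56.3% and 27.6% of all genes). Mitochondrially encoded genes held 14.5% to 14.8% of FPKM in passage 1 controls and 27.1% to 27.4% in passage 6 controls. Their part in these ratios was not tested.

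The passage 1 experimental libraries differed among themselves in the autophagy genes. The summed FPKM of the 12 genes was 247 and 226 in libraries 1 and 2 and 279.9 and 269 in libraries 3 and 4, with controls at 268 to 279. Gabarapl1 (32.9, 29.8, 47 and 42.3 FPKM) and Wipi1 (20.7, 18.9, 37.1 and 27.1 FPKM) had the same split. Lamp1 had the opposite one, at 365 and 367 FPKM in libraries 1 and 2 and 318 and 323 FPKM in libraries 3 and 4. Summed colon markers were also split, at 198 and 171 FPKM in libraries 1 and 2 and 8.09 and 87.3 FPKM in libraries 3 and 4. The part of colon RNA in these values was not tested.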
